A study of Macaca mulatta with 28 samples.

Results

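RNA from dissected brain tissue holding the amygdala's central nucleus (CeA) was compared between 5 binge drinkers (BD) and 10 low drinkers (LD), male rhesus macaques (Macaca mulatta) that drank ethanol by choice. The 15 libraries, 1 per animal, were taken from 28 in the series by the drinking category in their labels. The other 13 animals were 7 heavy (HD) and 6 very heavy drinkers (VHD), and they enter here only where an exon is followed across all categories. Every animal was ethanol-naive at the start, was induced on 4% (w/v) ethanol and then had access for 22 hours a day for over 12 months, so the comparison holds no animal without ethanol.

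A BD animal took 2 g/kg or more on 55% of days or more, with a blood ethanol that reached 80 mg/dl. HD animals took 3 g/kg or more on 20% of days or more, and VHD animals averaged over 3 g/kg with over 4 g/kg on 10% of days or more. An LD animal met the definition of none of the other categories. The BD and LD animals came from 3 cohorts of different age, and cohort was a term in every fit unless stated. Cohort 4, with an average age of 8.24 years at induction and 9.98 years after open access, held 3 BD and 4 LD animals. Cohort 7a, at 4.18 and 5.7 years, and cohort 7b, at 5.69 and 7.18 years, each held 1 BD and 3 LD animals, so a value within either of these rests on a single BD animal. Cohort 5, at 5.63 and 7.15 years, held 3 of the HD and 4 of the VHD animals and no BD or LD animal. No strain or genotype is given in the labels. The block was dissected by landmarks and contained the CeA together with neighbouring tissue.

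The CeA is the main output nucleus of the amygdala and is built largely of GABA neurons that also release peptides such as enkephalin, dynorphin, somatostatin and corticotropin-releasing hormone. These peptides and their receptors link stress, anxiety and alcohol drinking in rodents and primates. Binge drinking repeatedly brings blood ethanol to intoxicating levels. The LD category is given without an intake or blood ethanol value of its own.

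Values are normalized reads, the reads over a gene's exons scaled by 1 upper-quartile factor per library. Library depth was 1910514 to 23917134 reads in the BD animals (median 15845618) and 6474295 to 25928489 reads in the LD animals (median 16672418.5). The shallowest library is BD replicate 1 of cohort 4, in which 3 reads correspond to 24.1 normalized reads, against 1.82 to 6.73 in the other 14. It also stood apart on the second principal component, at -60.3, where the other libraries lay between -15.0 and 20.8. PRKCD and SST, 2 genes of CeA neurons, were present in every library. PRKCD, a kinase of one class of CeA neurons, had 385 to 865 normalized reads in BD animals and 356 to 850.0 in LD animals. SST had 928 to 3027 in BD animals and 1123 to 3898 in LD animals. ISL1, a transcription factor found in CeA and other neurons, fell to 1.35 in BD replicate 2. The share of CeA in each block was not tested. The neighbouring tissue varied between blocks, since SLC17A6, the vesicular glutamate transporter of excitatory neurons, had 47.3 to 3204 normalized reads in BD animals and 13.5 to 2824 in LD animals.

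No gene passed the test between BD and LD animals. Of 12784 tested genes, 0 passed an adjusted p of 0.05 in limma (smallest adjusted p 0.9996, Benjamini-Hochberg, two-sided), and edgeR and DESeq2 on the recovered reads also called 0. At an unadjusted p under 0.05 limma had 133 higher genes (1.04% of those tested) and 140 lower genes (1.1%), together 2.14%. The higher genes made up 48.7% of these in limma, 60.2% in edgeR (139 higher and 92 lower) and 59.8% in DESeq2 (261 in all). The fitted fold lay above 1 in 46.1% of genes and below 1 in 53.9%. Precision sets what this covers: for 90.05% of genes the whole 95% interval lay within a 2-fold change up or down, and for 72.6% it lay within a 1.5-fold change. Within cohort 4 alone, with 3 BD and 4 LD animals, limma called 0 genes (135 higher and 170 lower at an unadjusted p under 0.05). Without BD replicate 1, limma again called 0 genes (94 higher and 91 lower at that level).

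The genes named next are the 12 higher and 12 lower ones with the smallest p among genes averaging at least 50 normalized reads. None passed the adjusted threshold, with an adjusted p of at least 0.9996 in limma for each. Their order is therefore a description of these 15 animals. In all 24, the difference within each of the 3 cohorts had the direction of the fit that chose them, while 10.7% of tested genes were higher and 11.2% lower in each of the 3. Because that fit chose the 24, their shared direction is no test of them.

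PRAF2, a membrane protein of the secretory pathway, had 369, 312, 354, 335 and 350.2 normalized reads in the 5 BD animals, against 233 to 339 (median 262) in the LD animals, a fold of 1.27 (95% interval 1.09 to 1.49). All BD values but 2 lay above every LD value. CD81, a tetraspanin of the cell surface, had 6205, 4555, 5737, 6346 and 6098 normalized reads in BD animals and 3295 to 5445 (median 4960) in LD animals, a fold of 1.26 (1.09 to 1.46). In BD replicate 2 it lay inside the LD range. BCAS1 and SIRT2 are both known from oligodendrocytes, the cells that make myelin. BCAS1, found in newly myelinating oligodendrocytes, had 3111, 3110, 4330, 3500.2 and 3016 normalized reads in BD animals and 2059 to 3716 (median 2419) in LD animals, a fold of 1.31 (1.10 to 1.56). SIRT2, a deacetylase abundant in myelin, had 1732, 1465, 1648, 1482 and 1500 normalized reads in BD animals and 1095 to 1669 (median 1267) in LD animals, a fold of 1.22 (1.06 to 1.41). Both genes overlapped between groups, because 2 LD animals of cohort 7a were high.

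LAMP2, a lysosomal membrane protein, had 4619 to 5335 normalized reads in BD animals and 3654 to 4899 in LD animals, a fold of 1.16. TECR, which makes the last reduction in very long chain fatty acid synthesis, had 992 to 1152 in BD animals and 726 to 1082 in LD animals, a fold of 1.22. The largest folds among the 12 were those of PPDPF, at 1.65 (1.17 to 2.33), and MLIP, a lamin-interacting protein, at 1.56 (1.12 to 2.16). MLIP had 2774, 1839, 2454, 1425 and 1423 normalized reads in BD animals, against 723 to 2040 (median 1163) in LD animals, with the higher BD values all from cohort 4. BCL7B, CLDND1, CDC42EP4 and the ribosomal protein gene RPL29 complete the 12, with folds of 1.24, 1.28, 1.39 and 1.43. RPL29 overlapped through LD replicate 3, at 821 normalized reads, and its reads can be shared with near-identical copies.

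Among the 12 lower genes, DDX60, an interferon-induced helicase that senses viral RNA, had the smallest fold, 0.519 (95% interval 0.352 to 0.764). It had 16, 47.1, 50.4, 40.3 and 78.8 normalized reads in BD animals, against 64.8 to 126 (median 80.0) in LD animals. The lowest BD value, from BD replicate 1, rests on 2 reads, and without that animal the log2 fold change of DDX60 was -0.67, against -0.95 with it. PHKG1, the catalytic subunit of phosphorylase kinase, which starts glycogen breakdown, had 168, 128, 246, 184 and 142 normalized reads in BD animals and 188 to 332 (median 242) in LD animals, a fold of 0.654 (0.514 to 0.833). Only BD replicate 3 lay inside the LD range of PHKG1.

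ACAD8, an enzyme of valine breakdown, had 136, 172, 204, 224 and 221 normalized reads in BD animals and 215 to 318 (median 264) in LD animals, a fold of 0.723 (0.590 to 0.885). ERCC4, a nuclease of DNA repair, had 433, 460.2, 485, 543 and 498 in BD animals and 502 to 732 (median 598) in LD animals, a fold of 0.805 (0.703 to 0.923). For ERCC4, 4 of 5 BD animals lay below every LD animal. LARS2, the leucyl-tRNA synthetase of mitochondria, had 505 to 657 normalized reads in BD animals and 618 to 857 in LD animals, a fold of 0.797. CDH5, the cadherin of endothelial junctions, had 168, 115, 168, 73.8 and 136 in BD animals and 128 to 243 (median 171) in LD animals, a fold of 0.697 (0.535 to 0.909). The other lower genes were ZNF737 (fold 0.697), GAPDHS (0.677), TGS1 (0.757), DPM1 (0.840), PLGRKT (0.750) and OSGEPL1 (0.638), all with overlapping groups.

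**Figure D1:**
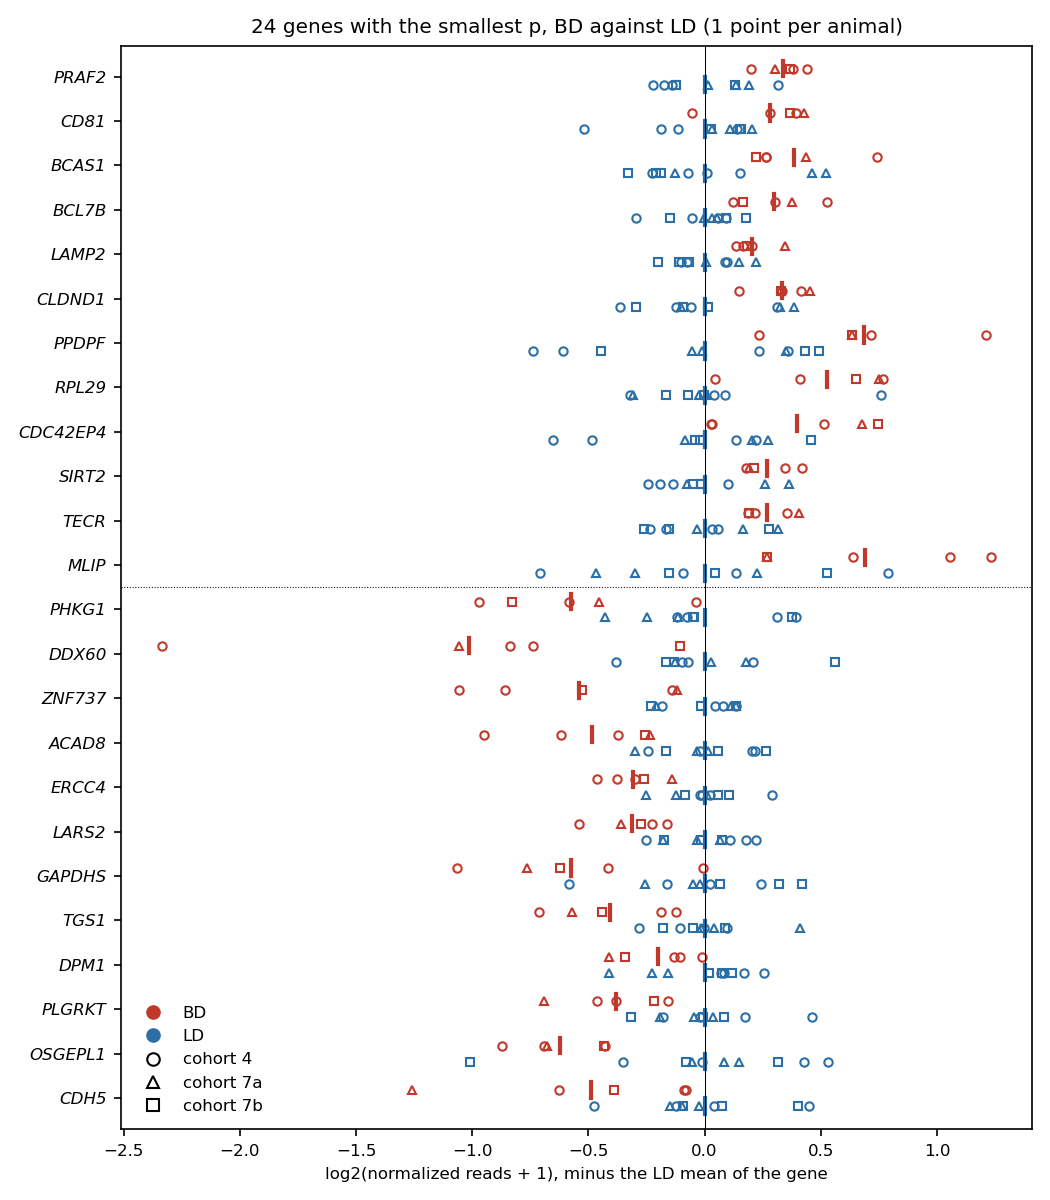
Each point is 1 animal's log2(normalized reads + 1) minus the LD mean of that gene, with BD (red) above LD (blue), the group mean as a bar and the cohort as the symbol. Most genes overlap between groups, and the lowest DDX60 point is the shallow BD replicate 1.

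A single gene among the 12784, 0.00782%, had BD and LD values that did not overlap. SPIN3, a spindlin family member, had 305, 348, 354, 393 and 379 normalized reads in BD animals, against 402 to 779 (median 418) in LD animals, a fold of 0.780 (95% interval 0.632 to 0.962). The gap between the highest BD and the lowest LD animal was small, and the highest LD value belonged to replicate 1 alone, with 469 the next. Spindlin copies are alike, so reads of SPIN3 can be shared with them.

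CeA peptides, their receptors and stress genes overlapped between the groups. PENK, the enkephalin precursor, had 2974, 1293, 6370.1, 8343 and 23263 normalized reads in BD animals and 3018 to 32856 (median 8757) in LD animals, a fold of 0.687 with a 95% interval of 0.273 to 1.73. SST had 1427, 928, 2057, 3027 and 2829 in BD animals and a median of 2846 in LD animals, a fold of 0.780 (0.497 to 1.23). CRH, the stress peptide that activates the pituitary axis and acts within the CeA, had 16, 46.4, 44.5, 58.5 and 74.4 normalized reads in BD animals and 37.5 to 81.0 (median 55.5) in LD animals, a fold of 0.825 (0.550 to 1.24). The lowest CRH value is again 2 reads in BD replicate 1, and without that animal the log2 fold change of CRH was 0.00, against -0.28 with it. In each of these 3 genes the BD animals of cohort 4 were lower than its LD animals, by -1.52, -0.87 and -0.65 on the log2 scale, and those of cohorts 7a and 7b were not.

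PDYN, the dynorphin precursor, had 628 to 1464 normalized reads in BD animals and 733 to 2266 in LD animals, a fold of 0.885 (0.601 to 1.30). OPRK1, the kappa receptor that dynorphin activates, had 385 to 937 in BD animals and 288 to 857 in LD animals, a fold of 1.11 (0.802 to 1.53). NPY, a peptide that lowers anxiety-like behaviour in rodents, had 584 to 1740 in BD animals and 424 to 1748 in LD animals, a fold of 1.17 (0.727 to 1.88). Its receptor gene NPY5R had 104, 141, 149, 158 and 164 normalized reads in BD animals and 136 to 267 (median 187) in LD animals, a fold of 0.754 (0.577 to 0.986). It was the only tested peptide receptor of 21 with an unadjusted p under 0.05, which 2.14% of all genes had. All 5 BD values of NPY5R lay under the LD median, which is no test of a gene named by its p.

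The CRH receptor gene CRHR1 had a log2 fold change of 0.01 (95% interval of the fold 0.693 to 1.46). The glucocorticoid receptor gene NR3C1 had a narrow spread, with 2389 to 2723 normalized reads in BD animals and 2189 to 2703 in LD animals, a fold of 1.06 (0.957 to 1.17). FKBP5, a chaperone that glucocorticoids induce, had a fold of 1.07 (0.824 to 1.40). BDNF, a growth factor of neurons, had 249, 610, 236, 167 and 26.3 normalized reads in BD animals and 15.8 to 503 (median 114) in LD animals, a fold of 1.57 (0.462 to 5.32). Each group spanned more than a 20-fold range, and the interval includes a several-fold difference. Of the list of 15 tested stress and anxiety peptides 8 had folds above 1 and 7 below, and of 8 opioid genes 3 and 5, with 0 called in either list.

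**Figure D2:**
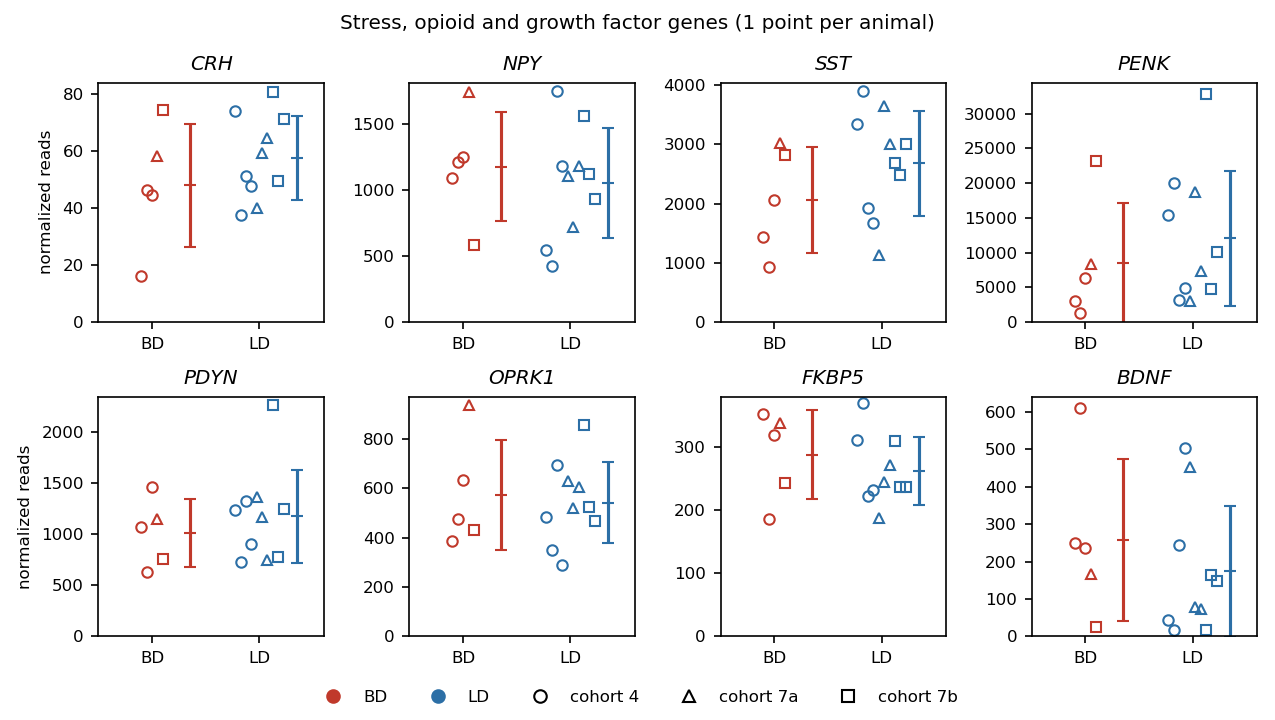
Normalized reads of 8 genes in each BD (red, left) and LD animal (blue, right), with the cohort as the symbol and the group mean ± SD beside the points; bars end at 0 where the mean minus the SD is negative. Every panel shows overlapping groups, and PENK and BDNF spread most.

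Gene lists were described by counts and medians, and 0 members of any list were called. In 10 of 42 lists with at least 5 tested members the median kept its sign in all 27 alternative fits: myelin, ribosomal, vascular, choroid plexus, AMPA and kainate, CeA identity, astrocyte, matrix, glutamate uptake and postsynaptic genes. In the other lists, the stress peptides, opioid genes and receptors above among them, it turned in at least 1. The fits share their animals, and none was of cohort 7a or 7b alone. Within cohort 7a the median had the opposite sign in the myelin (-0.21), choroid plexus (0.07) and AMPA and kainate lists (0.05). The same held there for CeA identity (0.13) and postsynaptic genes (-0.04), and within cohort 7b for glutamate uptake (-0.06). Over all 12784 genes, 46.1% had a fold above 1 and the median log2 fold change was -0.01. The myelin list stood highest: 19 of its 20 genes had a fold above 1, with a median log2 fold change of 0.30. MOBP, a structural protein of myelin, had 3030.4, 2581, 3735, 3221 and 3695 normalized reads in BD animals and 1722 to 4470 (median 2297) in LD animals, a fold of 1.35 (95% interval 1.04 to 1.74). CNP, an enzyme of the myelin sheath, had 5714 to 6970 in BD animals and 3857 to 7861 in LD animals, a fold of 1.25 (1.01 to 1.53). MOBP, CNP and ERMN were among the members with an unadjusted p under 0.05, which 1.04% of all genes had in that direction. MBP itself, the basic protein of myelin, had a fold of 1.26 (0.964 to 1.65), and OLIG2, a transcription factor of the whole lineage, was the member with a fold below 1.

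The myelin counts differed by cohort. In cohort 4, 19 of 20 genes were higher in BD animals, with a median difference of 0.39 on the log2 scale, and in cohort 7b all 20 were, with a median of 0.58. In cohort 7a only 3 of 20 were higher, and the median was -0.21. Summed over the list, BD animals had 90704 to 117614 normalized reads (98824 ± 11043, SD, n = 5) and LD animals 58993 to 124510 (84931 ± 22684, SD, n = 10). The 2 highest sums of all 15 animals belonged to LD animals of cohort 7a. Over 27 alternative fits 18 to 20 members had a fold above 1, and the median ran from 0.19 to 0.44. In a bulk sample, more oligodendrocytes in the block and more RNA per cell cannot be told apart. Of the oligodendrocyte precursor genes, 4 of 7 had a fold above 1, with a median of 0.01.

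Cytosolic ribosomal protein genes had 49 of 51 members above 1, with a smaller median of 0.14. RPS20, RPL28, RPS16 and RPL8 had an unadjusted p under 0.05, which 1.04% of all genes had in that direction. RPS16 had 1347, 606, 690.3, 745 and 682 normalized reads in BD animals and 346 to 758 (median 573) in LD animals, a fold of 1.42 (1.05 to 1.92), with the shallow BD replicate 1 far above the rest. The summed list was 180288 to 252660 in BD animals and 137988 to 220896 in LD animals, and the extremes were the shallowest library of each group, BD replicate 1 and LD replicate 1. Without BD replicate 1 the count was 44 of 51 and the median 0.07. Without LD replicate 1 it was 40 of 51 and 0.05, and without both it was 26 of 51 and 0.00. Reads of these genes can be shared with processed copies, and the part of depth in this count was not tested.

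**Figure D3:**
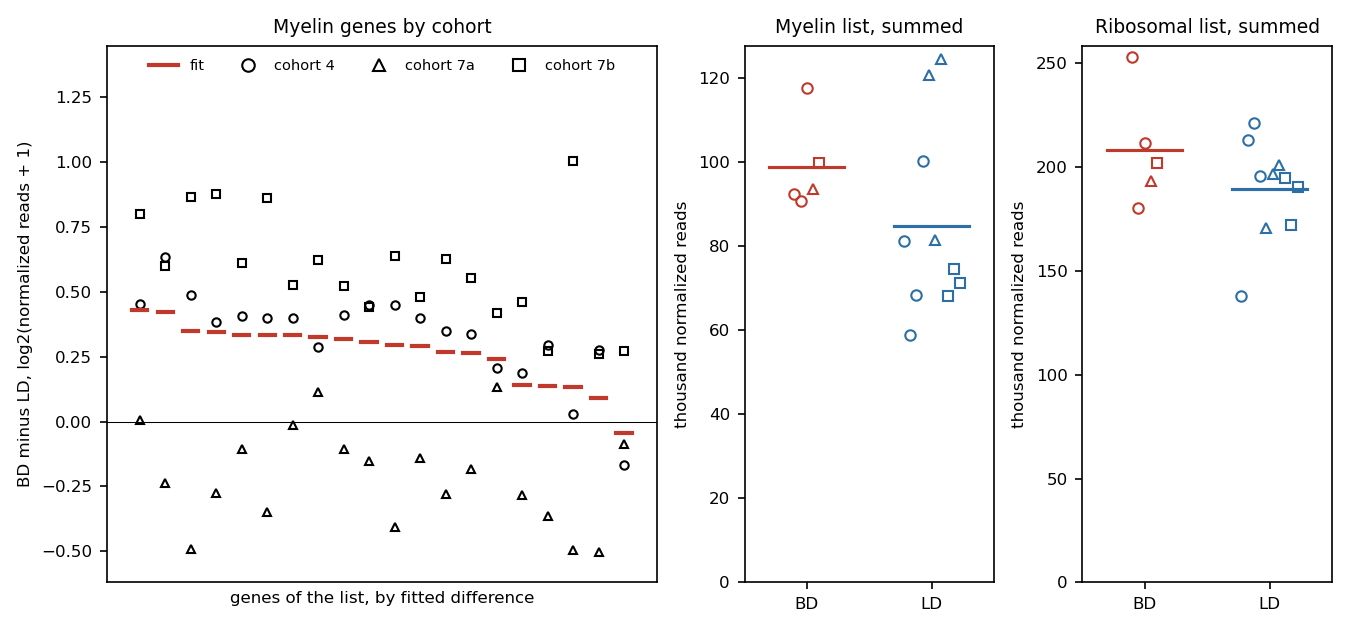
Left, the BD minus LD difference of each myelin gene, in the order of the fitted difference, within cohorts 4, 7a and 7b (symbols) and in the fit (red bars), on log2(normalized reads + 1). Right, the summed myelin and ribosomal lists per animal, BD left of LD, with group means as lines; in cohort 7a most myelin genes lie below 0, and the extremes of the ribosomal sum are BD replicate 1 and LD replicate 1.

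The astrocyte, microglial and vascular medians lay closer to that of all genes (-0.01, with 46.1% above 1) than the myelin median did. Astrocyte genes were above 1 in 11 of 16 (median 0.07), with a fold of 1.05 (0.765 to 1.43) for GFAP. Microglial genes were above 1 in 8 of 17 (median -0.03), with a fold of 0.969 (0.782 to 1.20) for AIF1. Endothelial and pericyte genes were above 1 in 4 of 16, with a median of -0.15. CDH5 and RGS5, a pericyte signalling regulator, had an unadjusted p under 0.05, which 1.1% of all genes had in that direction. RGS5 had 717 to 1102 normalized reads in BD animals and 828 to 1417 in LD animals, a fold of 0.829 (0.708 to 0.972). Over the 27 alternatives, 2 to 5 of the 16 vascular genes were above 1.

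Choroid plexus, ependyma and meninges genes were above 1 in 2 of 12 (median -0.26), and their summed level was 1066 to 2519 normalized reads in BD animals and 1371 to 3915 in LD animals. TTR, the defining transcript of the choroid plexus, was between 4.04 and 149 in BD animals and between 6.95 and 1319 in LD animals. The choroid plexus and vascular medians were both negative in the fit and in cohorts 4 and 7b. In cohort 7a the choroid plexus median was 0.07 and the vascular median -0.09. The part of the choroid plexus markers in the vascular values was not tested.

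Immune genes were mixed. CD74, the chaperone of antigen-presenting class II molecules, had 433, 521, 955, 574 and 472 normalized reads in BD animals and 279 to 644 (median 393) in LD animals, a fold of 1.36 (1.01 to 1.84). TAP2, which carries peptides to class I molecules, had 278 to 401 in BD animals and 186 to 335 in LD animals, a fold of 1.27 (1.03 to 1.56). DDX60 lay in the opposite direction, and the interferon and antigen presentation list as a whole had 11 of 24 members above 1 (median -0.02). Innate immune signalling genes had 14 of 26 above 1 (median 0.01).

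CRYAB, a small heat shock protein found in oligodendrocytes and astrocytes, had 1203, 1092, 1851, 1832 and 1398 normalized reads in BD animals and 723 to 1583 (median 909) in LD animals, a fold of 1.47 (1.10 to 1.96). It was higher in the BD animals of each cohort, by 0.49, 0.57 and 0.69 on the log2 scale in cohorts 4, 7a and 7b, and all 5 BD animals exceeded the LD median. CRYAB was named by its p in these animals, so this shared direction is no test of it. Of all tested genes, 10.7% were higher in each of the 3 cohorts. Heat shock genes in all had 10 of 18 above 1. NFE2L2, the transcription factor of the antioxidant response, had 1060 to 1313 in BD animals and 847 to 1184 in LD animals, a fold of 1.17 (1.04 to 1.33). Its list of antioxidant and metallothionein genes had 12 of 18 above 1 (median 0.06), but 7 of 18 without LD replicate 1 (median -0.04).

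Transmitter receptors were mostly close to 1. AMPA and kainate receptor subunits had 1 of 9 members above 1 and a median of -0.14. GRIA2, the subunit that makes AMPA receptors impermeable to calcium, had 11616 to 16382 normalized reads in BD animals and 11054 to 17995 (median 14856) in LD animals, a fold of 0.852 (0.733 to 0.990), and 4 of 5 BD animals lay below the LD median. Over the alternatives 0 to 4 of these 9 genes were above 1. GABA-A receptor subunits, a direct target of ethanol, had 6 of 11 above 1 (median 0.02), and NMDA receptor subunits 3 of 5 (median 0.02). GAD1, which makes GABA, had a fold of 0.855 (0.664 to 1.10). KCNMB2, an accessory subunit of the ethanol-sensitive BK channel, had 53.4 to 153 normalized reads in BD animals and 78.5 to 142 in LD animals, a fold of 0.748 (0.566 to 0.989). ALDH2, which clears acetaldehyde, had a fold of 0.982 (0.853 to 1.13), and ethanol metabolism genes had 5 of 11 above 1.

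The lists that mark neighbouring tissue had the widest spread between animals. Cortical and basolateral glutamatergic genes had a median difference of 1.16 on the log2 scale in cohort 4, -0.83 in cohort 7a and -2.35 in cohort 7b, and 0.13 in the fit. The fitted median of this list turned to -0.09 without BD replicate 1, -0.19 without BD replicate 2, -0.14 without LD replicate 1 and -0.11 without LD replicate 2, and over all 27 alternatives it ran from -0.74 to 1.16. Basal forebrain, hypothalamus and pallidum genes were at -1.21 in cohort 4, 1.74 in cohort 7a and 0.28 in cohort 7b, and at -0.24 in the fit, with 7 of 15 above 1 and a median near 0 without BD replicate 1, a median of 0.13 without BD replicate 2 and a range of -1.21 to 0.64. ISL1, a transcription factor of striatal, CeA and basal forebrain neurons, had 8.02, 1.35, 19.9, 116 and 158 normalized reads in BD animals and 17.7 to 225 (median 130.1) in LD animals. Its difference in cohort 4 was -3.50 on the log2 scale. The values of BD replicates 1 and 2 rest on very few reads, since 1 read is 8.02 and 0.673 normalized reads there. Striatal medium spiny neuron genes were above 1 in 1 of 12 (median -0.23), with a sum of 10162 to 38584 normalized reads in BD animals and 12914 to 75328 in LD animals, and the CeA identity list in 3 of 12 (median -0.13). The CeA identity median was -0.02 without LD replicate 8 (5 of 12) and -0.02 without LD replicate 1. Marker levels of neighbouring tissue thus varied among these 15 animals, and their part in the peptide values above was not tested.

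**Figure D4:**
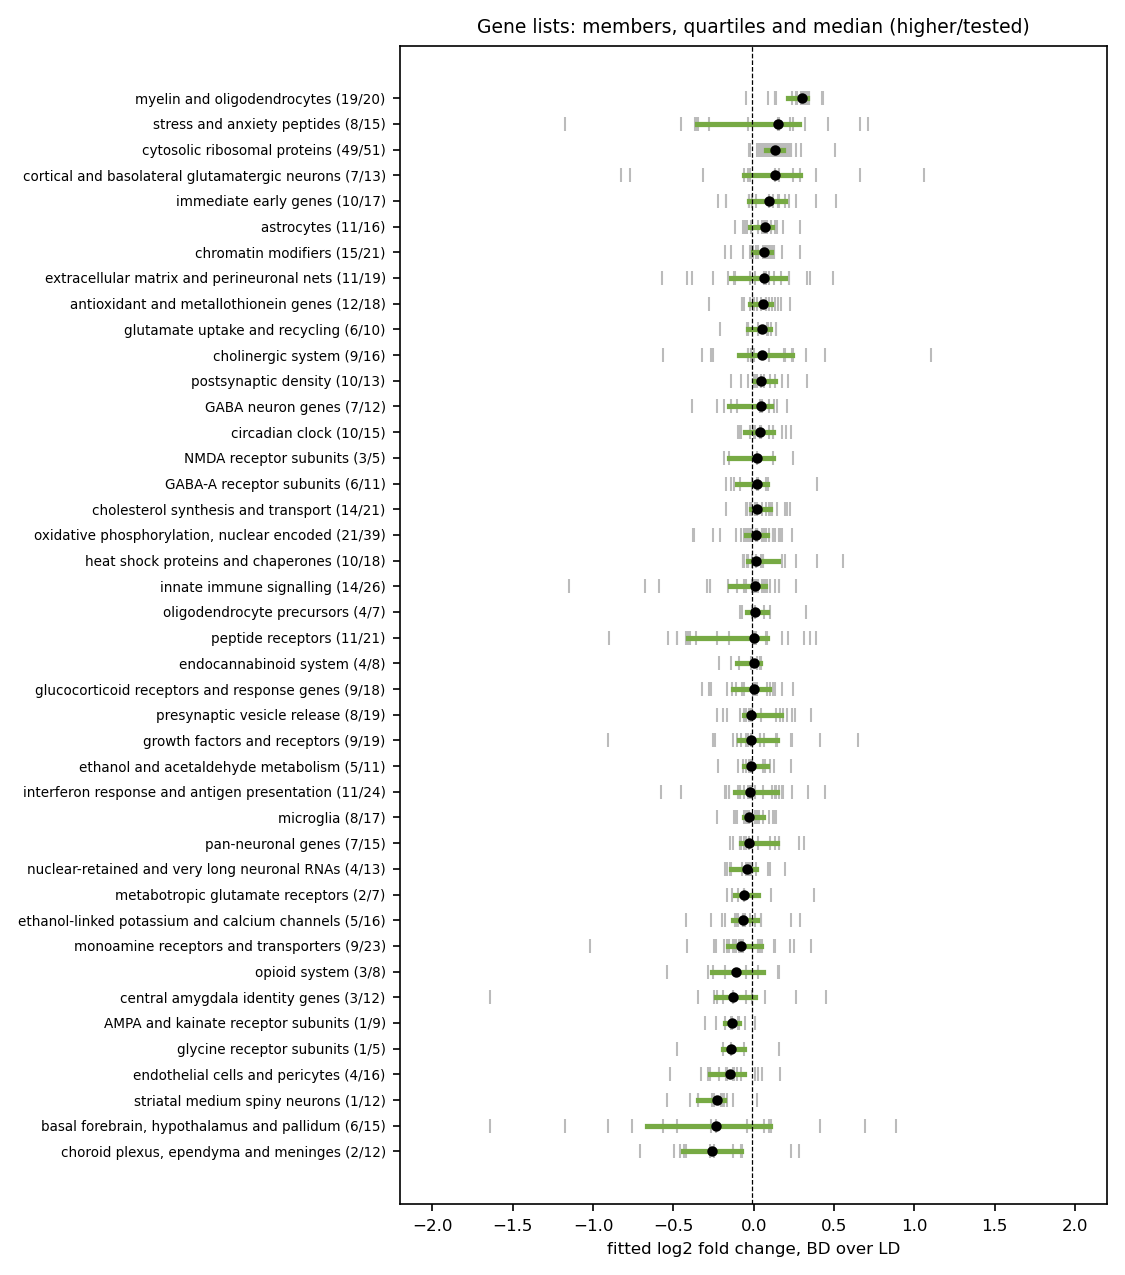
Fitted log2 fold change, BD over LD, of the tested members of each list with at least 5 tested genes (grey ticks), their quartiles (green) and median (black), with the number higher and tested; the dashed line is the median of all genes. The myelin list has the highest median and the choroid plexus list the lowest.

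The BD effect was then compared between cohort 4 and the mean of cohorts 7a and 7b. In limma 0 of 12784 genes passed (smallest adjusted p 0.977), and 306, or 2.39%, had an unadjusted p under 0.05. The 5 genes with the smallest p were PCCB, MFAP4, MIIP, CYP1B1 and SHC1. MFAP4, a microfibril protein, had 16, 29.6 and 37.5 normalized reads in the BD animals of cohort 4 and 77.7 and 122 in those of the younger cohorts, against 27.9 to 70.5 in the LD animals of all cohorts. The value of 16 is from BD replicate 1, where 1 read is 8.02 normalized reads, so it rests on very few reads. SHC1, an adaptor of growth factor receptors, had 224, 262 and 329 in the BD animals of cohort 4 and 399.9 and 552 in the others, against 364 to 460.1 in the LD animals of all cohorts.

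Of 2 further genes named in earlier results on this series, C14orf105 had 24.1, 31.6, 7.03, 155 and 342 normalized reads in BD animals and 20.2 to 431 (median 177) in LD animals. SIRPB1, an activating receptor of myeloid cells, had 38.5 to 70.0 in every BD animal, while 3 LD animals were listed at 0 and 1 at 1.17, and the other 6 LD animals had 36.5 to 99.5.

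Exons gave the only results past the threshold. On single exons, limma called 0 of 108281 (smallest adjusted p 0.0731, with 3099, or 2.86%, at an unadjusted p under 0.05). Relative exon use, which asks whether 1 exon departs from the rest of its gene, differed in 15 of 9489 genes, or 0.158%, by the F test of limma's diffSplice (312, or 3.29%, at an unadjusted p under 0.05). The 15 were HSPB11, ATP11B, KARS, CEP41, STK24, HTRA1, OGDH, ZC3H14, SPIN1, CAST, MRPL40, XPNPEP1, TMBIM1, SLC24A3 and PREPL. The exons of OGDH and TMBIM1 reached 10 normalized reads in 0 BD and 5 LD animals, so they entered the test only through the group where they were high, and both genes lost their call under a filter on the mean of the 15 libraries. This test treats the exons of a gene in 1 library as separate measurements. Of the 15 genes, HSPB11, ATP11B and CEP41 were also called in all 15 fits that left out 1 animal. Those fits share most of their animals, so the repeated calls are no separate test of these genes. Without the shallow BD replicate 1, 10 genes were called, 6 of them among the 15, and within cohort 4 alone 18 were called, 5 of them among the 15. ATP11B and KARS were not called in cohort 4 alone, and KARS was called in 13 and STK24 in 14 of the 15 fits that left out 1 animal. The 5 genes with the smallest p follow, each with the exon of smallest p. Exon positions are those of the deposited table, and the build behind them is not given in the sources used here.

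HSPB11 encodes a subunit of the intraflagellar transport machinery that builds cilia. Its exon at chr1:53320297-53320409, 113 bases long, had 40, 40, 30, 40 and 20 normalized reads in the 5 BD animals and 5 to 12 (median 9) in the 10 LD animals. The groups did not overlap, which held for 27 of all exons, or 0.0249%. The fitted difference of this exon was 1.82 on the log2 scale (SE 0.23), and that of the whole gene was 0.20. The exon took 9.43% to 16.1% of the gene's exon reads in BD animals and 2.04% to 6.80% in LD animals. The adjusted p of the F test was 7.61e-07 in limma. HD animals had 10 to 25 (median 21) and VHD animals 8 to 13 (median 10), so the HD range included the lowest BD animal. The BD value of replicate 1 rests on 5 reads. The exon entered the tests through 5 BD and 5 LD animals at 10 or more normalized reads.

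ATP11B encodes a flippase, a pump that moves phospholipids across membranes. Its exon at chr3:87984661-87984708, 48 bases long, had 24, 26, 21, 31 and 32 normalized reads in BD animals and 2 to 8 in 9 of 10 LD animals, with 25 in LD replicate 9. It entered the test through 5 BD animals and 1 LD animal at 10 or more, so the BD group alone met the filter. The BD value of replicate 1 rests on 3 reads. The difference of the exon was 2.14 on the log2 scale (SE 0.33), against 0.03 for the gene, with an adjusted p of 1.10e-06 in limma's F test. The same separate ranges appeared in the other categories: HD animals had 3 to 7 in 5 animals and 27 and 35 in 2, and VHD animals had 9 in 1 animal and 23 to 35 in the other 5.

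KARS encodes a lysyl-tRNA synthetase. Its exon at chr16:59802128-59802237, 110 bases long, had 56, 2, 47, 2 and 1 normalized reads in BD animals and 20 to 48 (median 37.5) in LD animals. The BD animals thus split, with 3 close to 0 and 2 at LD levels or above. The value of 56, above the LD range, is BD replicate 1 and rests on 7 reads. Among HD and VHD animals 1 each stood at 1. The adjusted p was 3.13e-05 in limma's F test.

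CEP41 encodes a centrosomal protein of cilia. Its exon at chr7:156127858-156128134, 277 bases long, had 0, 1, 0, 1 and 11 normalized reads in BD animals and 10 to 20 in 9 of 10 LD animals, with 0 in LD replicate 7. The exon entered the test through 1 BD animal and 9 LD animals at 10 or more, so the LD group alone met the filter. HD animals had 2 to 19 and VHD animals 1 to 21. The adjusted p was 3.39e-05 in limma's F test. The count of 0 in BD replicate 1 allows up to 24.1 normalized reads (3 reads, counting error only), so that value does not separate the library from LD levels.

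STK24 encodes a protein kinase of the sterile 20 family. Its exon at chr13:79843724-79843780, 57 bases long, had 56, 91, 66, 64 and 12 normalized reads in BD animals and 4 to 16 in 9 of 10 LD animals, with 97 in LD replicate 5. The value of 56 in BD replicate 1 rests on 7 reads. HD animals, at 9 to 18, and VHD animals, at 4 to 15, all lay in the lower range. The adjusted p was 0.00175 in limma's F test, and the difference of the exon was 1.75 on the log2 scale (SE 0.53), against -0.03 for the gene.

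**Figure D5:**
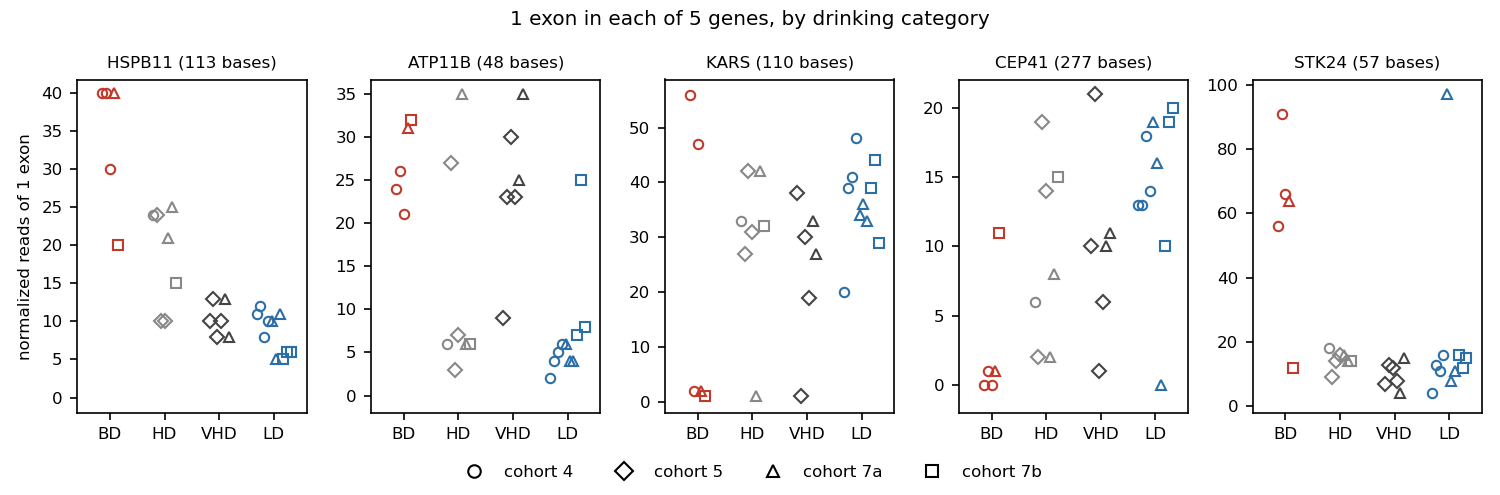
Normalized reads of 1 exon in each of the 5 genes, 1 point per animal, by category (BD, HD, VHD and LD) with the cohort as the symbol. BD lies above LD throughout for HSPB11, while the exons of ATP11B, KARS, CEP41 and STK24 take low or high values with at least 1 BD or LD animal in the range of the other group.

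The remaining called genes had similar overlap. The HTRA1 exon had 257, 39, 42, 39 and 32 normalized reads in BD animals, whereas LD animals had 231 to 302 in 8 and 31 and 45 in 2. The PREPL exon had 528 to 866 in all 5 BD animals, against 521 to 657 in 5 LD animals and 50 to 86 in the other 5. The MRPL40 exon had 64, 1, 16, 28 and 21 in BD animals, and 0 to 2 in 9 of 10 LD animals with 29 in the other. It reached 10 in 4 BD animals and 1 LD animal, so it entered the test mainly through the group where it was high. The value of 64 is from the shallow BD replicate 1, where 1 read is 8.02 normalized reads.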

How the data were processed

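Total RNA was sequenced as stranded, ribosomal RNA-depleted libraries, per the labels' protocols. The submitters' processing notes name CASAVA, FastQC, STAR 2.3.0e and edgeR. For genome build, annotation and counting strand, none is given in the sources used here. Both tables hold normalized values: the authors deposited a gene signal (reads times 1 upper-quartile factor per library) and an exon score (the same, rounded to whole numbers). Each table has 28 columns that were used and 2 not used here. In each used gene column 100% of values lay within 0.02 of a whole read, and on these recovered reads edgeR 4.0.16 (quasi-likelihood) and DESeq2 1.42.0 called 0 genes. Of 15521 gene symbols, 14301 matched a RefSeq list with synonyms.

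Genes and exons with at least 10 in at least 5 of 15 libraries were tested on log2(value + 1) by limma 3.58.1 (R 4.3.3), trend, BD plus cohort, Benjamini-Hochberg, threshold 0.05, two-sided. Fold changes are on that scale and understate low genes. Exon use was tested with diffSplice in genes of at least 3 exons. Libraries of a group varied 9.94 to 104.5 times more than counting alone. The steps were tested on simulated data. Named genes are 12 per direction by p (mean at least 50), genes whose groups do not overlap, up to 3 per list, 15 given whatever their p, 5 for exon use, 5 for the cohort difference, and 2 from earlier results; the HTRA1, PREPL and MRPL40 exons, ERMN, RPL8, OLIG2, PRKCD and TTR were chosen after their values were seen. An item that the rule takes is not reported here. Members and lists were chosen with earlier results of these data known. Each animal is its own library, and p-values of genes and single exons measure the spread between animals. Those of exon use do not measure it alone, because a gene's exons in 1 library count as separate measurements.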

Additional observations from a re-analysis of the deposited data

Results flagged for a closer look

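In 10 of 108 groups of values, the highest or lowest animal lay farther from the rest than Dixon's 95% limit allows, and chance alone gives about 1 in 20. Among BD animals it was the CEP41 exon in replicate 5, at 11 normalized reads with 1 the next. Among LD animals, the high values were RPL29 in replicate 3 (821, next 515), TGS1 in replicate 5 (717, next 577), SPIN3 in replicate 1 (779, next 469), PDYN in replicate 8 (2266, next 1372), GFAP in replicate 7 (60195, next 38078) and MBP in replicate 5 (6176, next 4167). Of the exons, ATP11B stood at 25 in LD replicate 9 (next 8), STK24 at 97 in LD replicate 5 (next 16), and CEP41 at 0 in LD replicate 7 (next 10).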

How the results depend on the processing

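The count of 0 called genes held in every alternative run for the gene test. Genes at an unadjusted p under 0.05, 273 with all 15 animals, came to 442 with all 28 libraries and 4 categories in the fit, to 873 with array weights and robust priors (smallest adjusted p 0.551), and to 185 to 426 when 1 animal was left out, the lowest without BD replicate 1 and the highest without BD replicate 2. TMM scaling gave 155 higher and 122 lower genes. Single exons called numbered 1 with all 28 libraries. Exon use genes, 15 in the 15 animals, were 29 with all 28 libraries (11 of the 15 among them), 2 with a filter of 50 (STK24 and HTRA1), 160 by the Simes test, 18 in cohort 4 alone (5 of the 15), 10 without BD replicate 1 (6 of the 15), and 8 to 23 when 1 animal was left out: 8 without LD replicate 2 or LD replicate 10, 9 without LD replicate 7 and 23 without BD replicate 5. A filter on the mean over the 15 libraries, chosen after seeing the data, called 15, of which 13 were shared. None of the 24 named genes or SPIN3 turned its sign in 27 alternatives, but they were chosen from these same animals. Their steady sign is therefore no test of them. Of the 15 genes given whatever their p, 11 turned their sign in at least 1. The striatal list had a median of 0.07 with array weights. The cause of these shifts was not tested. For the cohort difference, leaving out BD replicate 4 or 5 was not run, since it leaves its cohort without a BD animal. No paired analysis was possible because the replicate numbers were given in accession order and pair no animals. Depth limits the low genes in BD replicate 1.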
